A study of Mus musculus with 7 samples.

Results

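The genes described here encode the enzymes of glycolysis and of the pentose phosphate pathway. Others encode a subunit of pyruvate dehydrogenase, the kinases that switch it off, and the oxygen-sensing factor HIF-1 with some of its regulators and targets. All 36 genes were taken from a fixed list, each read from the brightest of its probe sets that carry a single gene symbol. Of the 36, 33 had such a probe set and 26 passed a minimum of log2 5 on at least 2 arrays, out of 8203 genes that passed in the whole series of 18194. Gpi1, Eno1 and G6pdx were not analysed here. The RNA came from OT-I cells, CD8 T cells with a transgenic receptor for a peptide of ovalbumin, carrying the Ly5.1 marker and transferred as naive CD44lo cells into hosts on a C57BL/6 background. All donor cells were labelled with CFSE, a dye that is diluted at each division. The naive group (n = 2 arrays) was undivided cells from the spleen of antigen-free B6 hosts after 60 h. The RIP-OVAhi group (n = 2) was cells that had divided at least 2 times after 60 h in the sacral and pancreatic lymph nodes of hosts with an ovalbumin transgene, the model of deletional tolerance. The rat insulin promoter that gives the transgene its name drives expression in pancreatic beta cells. The OCS/LPS group (n = 2) was cells that had divided at least 2 times after 60 h in the spleen of hosts given ovalbumin-coated splenocytes and lipopolysaccharide, the model of priming. The Rag group (n = 1) was cells that had divided at least 2 times after 5 days in the spleen of Rag-/- hosts, which have no T or B cells of their own. Each array held a pool of cells from 10 mice, or from 20 in the RIP-OVAhi group, and the ages of the animals are not given in the sources used here.

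Glycolysis splits glucose into pyruvate, which lactate dehydrogenase turns into lactate or pyruvate dehydrogenase uses inside the mitochondria. The pentose phosphate pathway branches off after the hexokinase step and supplies NADPH and ribose for nucleotides. T cells are known to raise glycolysis when antigen drives them to divide, and HIF-1 and Myc are known to induce many of these genes. HIF-1 binds a short core in regulatory DNA, and Myc binds the E-box.

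The arrays gave log2 expression values with medians between 2.97 and 3.08, and a value under log2 5 is called near background. The naive replicates differed more than the other pairs, with 347 of 8203 genes over 2-fold apart against 28 in RIP-OVAhi and 31 in OCS/LPS. Among the 26 tested genes of the list, Pgls alone was over 2-fold apart between the naive arrays, and none was in the other pairs. Xist and Kdm5d, genes expressed in 1 sex, followed the replicate number, so that the naive, RIP-OVAhi and OCS/LPS groups each held 1 array with high Xist and 1 with high Kdm5d, while the Rag array had high Kdm5d. Pgk1, Pdha1 and Pdk3 are on the X chromosome. The summed level of the CD8 T cell markers, all 7 of those measured out of 8 being above log2 5, lay between 15.0 and 15.2 on every array. MHC class II genes, of which 4 of 5 reached log2 5 on at least 2 arrays, had summed levels of 7.69 to 8.43 in naive and OCS/LPS, 5.73 and 5.92 in RIP-OVAhi and 9.17 in Rag. Myeloid genes, 4 of 12 at that level, had summed levels of 8.31 to 9.26 in naive and OCS/LPS, 6.71 and 6.89 in RIP-OVAhi and 10.1 in Rag. Plasma cell genes, 2 of 4 at that level, had summed levels of 8.23 to 9.12 in naive and OCS/LPS, 4.75 and 4.88 in RIP-OVAhi and 4.81 in Rag. Csf1r, a macrophage gene, was at 8.51 on the Rag array and at 2.44 to 2.56 on the others. C1qb (7.42), Tyrobp (6.17) and Adgre1 (5.46) were also highest on the Rag array. So were C1qa, C1qc and Fcer1g, which stayed under log2 5 on every array. Other myeloid genes of the list did not follow Csf1r. Lyz1 and Lyz2, at 8.46 and 5.79 on the Rag array, lay within their naive values (7.94 and 8.67, and 5.31 and 6.06). Itgam, Cd14 and Cd68 stayed under log2 5 on every array. The part of these transcripts in the results on glycolytic genes was not tested, and for RIP-OVAhi tissue and host cannot be told apart. In RNA from pooled cells, fewer cells of a type and less RNA per cell cannot be told apart either.

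The promoters of the genes that changed most are shown first, because the core bound by HIF-1 is a short sequence that can be looked for in them. Windows of 300 bases, from 250 before to 50 after the first listed RefSeq start of each gene in GRCm38.p6, were searched for ACGTG and GCGTG on both strands, and for the E-box CACGTG, which holds ACGTG on each strand. Each match at its own position was counted, overlapping ones included. Of the 8 genes called with a log2 difference from naive of at least 1, the 6 with the most matches are printed below. Each line gives the 250 bases before the start, 5′ to 3′ on the gene's strand, with the matches in capitals, and matches after the start are counted but not printed.
Pdk3: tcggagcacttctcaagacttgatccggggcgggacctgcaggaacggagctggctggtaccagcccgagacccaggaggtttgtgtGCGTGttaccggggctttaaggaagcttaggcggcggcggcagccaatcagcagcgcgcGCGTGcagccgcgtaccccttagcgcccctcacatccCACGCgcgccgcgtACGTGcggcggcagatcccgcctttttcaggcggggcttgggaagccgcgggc
Pfkp: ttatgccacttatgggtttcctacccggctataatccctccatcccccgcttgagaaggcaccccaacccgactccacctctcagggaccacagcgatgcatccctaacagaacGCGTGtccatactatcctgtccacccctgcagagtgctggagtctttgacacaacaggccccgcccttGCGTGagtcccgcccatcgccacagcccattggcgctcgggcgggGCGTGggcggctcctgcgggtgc
Pgam1: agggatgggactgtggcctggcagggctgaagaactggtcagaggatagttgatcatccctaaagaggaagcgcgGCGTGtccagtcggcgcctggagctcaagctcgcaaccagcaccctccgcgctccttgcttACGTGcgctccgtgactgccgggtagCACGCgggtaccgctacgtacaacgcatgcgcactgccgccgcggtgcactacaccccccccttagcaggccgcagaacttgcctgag
Hk2: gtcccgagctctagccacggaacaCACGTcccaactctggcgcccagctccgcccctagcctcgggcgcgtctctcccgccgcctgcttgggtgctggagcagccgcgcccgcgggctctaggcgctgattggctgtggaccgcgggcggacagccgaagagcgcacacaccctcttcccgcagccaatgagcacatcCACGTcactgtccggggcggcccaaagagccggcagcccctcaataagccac
Pdk1: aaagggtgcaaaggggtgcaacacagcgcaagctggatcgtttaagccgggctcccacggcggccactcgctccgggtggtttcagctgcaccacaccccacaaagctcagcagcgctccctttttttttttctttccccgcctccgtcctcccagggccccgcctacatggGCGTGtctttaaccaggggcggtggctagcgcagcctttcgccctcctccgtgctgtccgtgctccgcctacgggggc
Txnip: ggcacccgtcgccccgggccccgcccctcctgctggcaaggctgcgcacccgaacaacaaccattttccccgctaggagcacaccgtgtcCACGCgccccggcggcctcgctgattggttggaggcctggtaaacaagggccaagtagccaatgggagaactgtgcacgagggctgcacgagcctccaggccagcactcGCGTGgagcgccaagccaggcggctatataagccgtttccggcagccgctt
These stretches lie at chrX:93832151-93832400 (- strand) for Pdk3, chr13:6648772-6649021 (- strand) for Pfkp and chr19:41911621-41911870 (+ strand) for Pgam1. Those of the other genes lie at chr6:82774455-82774704 (- strand) for Hk2, chr2:71872974-71873223 (+ strand) for Pdk1 and chr3:96557707-96557956 (+ strand) for Txnip. In the whole window Pdk3 and Pfkp had 4 matches each, Pgam1 had 3, Hk2, Pdk1 and Txnip had 2 each, Pfkfb3 had 1 and Tpi1 had 0. None of these 8 windows held CACGTG. The genes with matches included Hk2, Pfkp and Pgam1, which rose, and Pdk1 and Txnip, which fell, and no relation of matches to direction was tested. Over the list, 21 of the 26 tested genes had at least 1 match, and among the 6768 promoters of tested genes 66.2% did, against 43.8% of all 27025 promoters. The E-box CACGTG was in the windows of 5 of the 36 genes, Ldha, Bnip3, Hif1a, Pfkm and Pdk2, and in 7.24% of all promoters and 11.1% of those of tested genes. Of these 5, Ldha rose in both antigen-driven groups, Bnip3 fell in OCS/LPS, Hif1a and Pfkm were not called and Pdk2 was not tested. A match is a run of letters and was not tested for binding, and no match says only that the letters are not in the window.

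The comparisons of RIP-OVAhi and of OCS/LPS with naive address which of these genes change when antigen drives naive cells to divide in a tolerising or a priming host. In RIP-OVAhi, 10 of the 26 tested genes rose and 2 fell at an adjusted p under 0.05, where 29.6% of all 8203 tested genes were called (18.1% higher and 11.6% lower). The RIP-OVAhi and naive arrays did not overlap for 19 of the 26, and for 66.0% of all tested genes. In OCS/LPS, 11 rose and 3 fell, where 32.9% of all tested genes were called (20.5% higher and 12.3% lower). The OCS/LPS and naive arrays did not overlap for 22 of the 26, and for 68.0% of all tested genes. The genes that rose in both comparisons were Hk2, Pfkp, Tpi1, Pgam1, Pkm, Ldha, Pdha1, Pdk3 and Rpe, and those that fell in both were Pdk1 and Txnip. Pfkfb3 was called in RIP-OVAhi and not in OCS/LPS, and Pgk1, Tkt and Bnip3 were called in OCS/LPS and not in RIP-OVAhi. Both comparisons use the same naive arrays, so the overlap of their calls is partly shared error. The median difference over the 26 genes was 0.23 in RIP-OVAhi and 0.35 in OCS/LPS, against 0.06 and 0.08 over all tested genes, and Hk2 entered the tested set through its divided cells because both naive arrays were near background. Where the arrays were centred on the median of the tested genes, all differences moved by -0.12 in RIP-OVAhi and -0.15 in OCS/LPS. After that centring 8 rose and 3 fell in RIP-OVAhi, where 1192 of all 8203 tested genes were called higher and 1296 lower. In OCS/LPS 7 rose and 4 fell, where 1340 of all tested genes were called higher and 1461 lower. Of all called genes, 47.9% and 47.8% were then higher in place of 61.0% and 62.5%. The calls that this centring ended were those of Ldha and Rpe in RIP-OVAhi and of Pgk1, Pdha1, Tkt and Rpe in OCS/LPS. With 2 arrays a group the counts also rest on single arrays. They were lowest without RIP-OVAhi replicate 2 in RIP-OVAhi and without OCS/LPS replicate 2 in OCS/LPS, for the listed genes and for all tested genes alike.

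**Figure D1:**
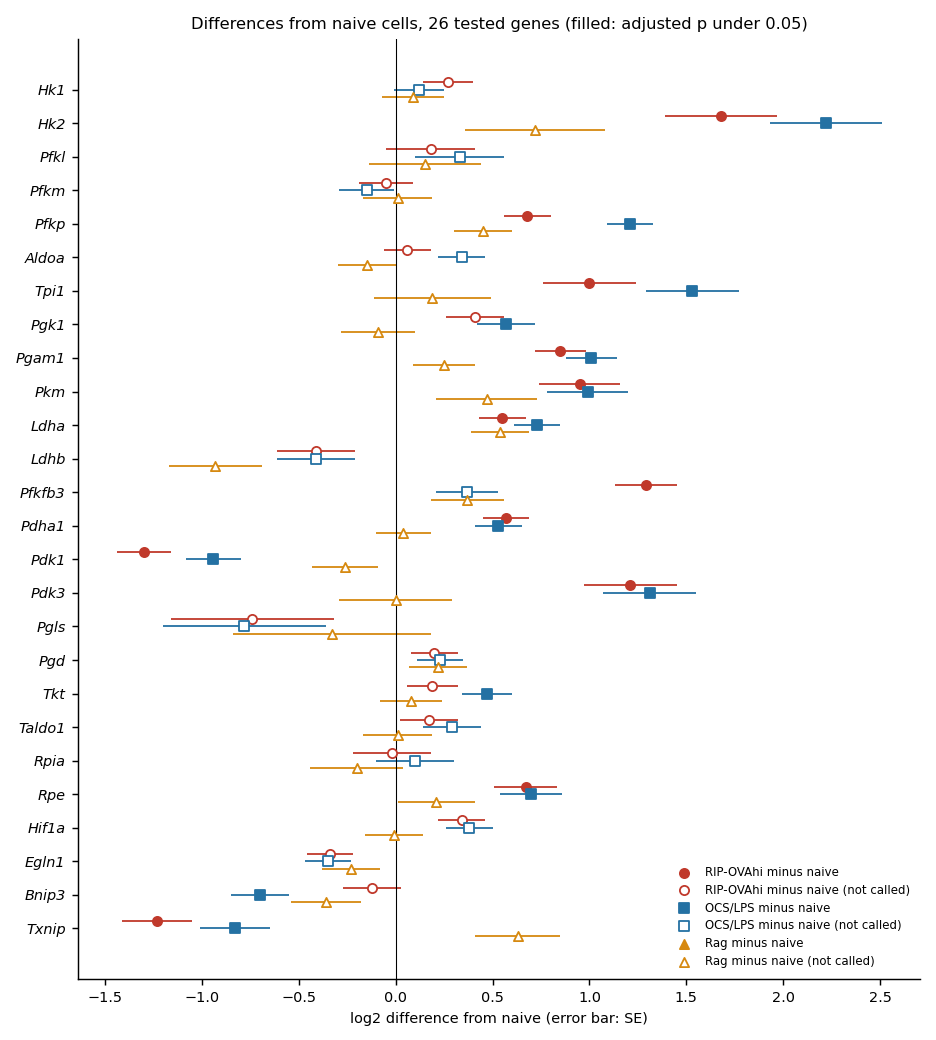
Log2 difference from naive (x axis) of the 26 tested genes (y axis) for RIP-OVAhi (circles), OCS/LPS (squares) and Rag (triangles), with the standard error as bar and filled symbols for adjusted p under 0.05. Hk2 is measured from naive values near background, Pdk1 and Txnip lie left of 0 in RIP-OVAhi and OCS/LPS, and no Rag symbol is filled.

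Hexokinases trap glucose in the cell by phosphorylating it. Hk2, the inducible isoform, lay at 4.61 and 4.72 on the naive arrays, 6.12 and 6.58 with RIP-OVAhi, 6.48 and 7.28 with OCS/LPS and 5.39 with Rag. Both naive arrays were lower than every array of divided cells, and the RIP-OVAhi and OCS/LPS arrays overlapped. Hk2 rose by 1.68 in RIP-OVAhi (SE 0.29, adjusted p = 0.00957) and by 2.22 in OCS/LPS (SE 0.29, adjusted p = 0.00346). Both differences are from naive values near background, so their size is uncertain, and without the filter on low values the adjusted p was 0.0663 in RIP-OVAhi and 0.0333 in OCS/LPS. Hk1, the isoform found in most tissues, lay between 9.49 and 9.91 on the 7 arrays, and neither its difference of 0.27 (SE 0.13) in RIP-OVAhi nor that of 0.12 (SE 0.13) in OCS/LPS was called. A dimmer Hk1 probe set differed by 1.02 in RIP-OVAhi and by 1.21 in OCS/LPS. With its probe sets averaged Hk1 was called in both comparisons (adjusted p = 0.0481 and 0.039). Hk3, a hexokinase of myeloid cells, stayed between 2.95 and 3.40 on every array, the Rag array included.

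Phosphofructokinase makes fructose 1,6-bisphosphate, the first step committed to glycolysis. Pfkp, its platelet-type isoform, lay at 10.07 and 9.98 on the naive arrays, 10.63 and 10.78 with RIP-OVAhi, 11.27 and 11.19 with OCS/LPS and 10.48 with Rag. The 4 groups did not overlap, with naive lowest and OCS/LPS highest. Pfkp rose by 0.68 in RIP-OVAhi (SE 0.12, adjusted p = 0.0109) and by 1.21 in OCS/LPS (SE 0.12, adjusted p = 0.00132). A second Pfkp probe set that reached log2 5 went the other way, by -0.63 in RIP-OVAhi and by -0.27 in OCS/LPS. Another, with 1 array above log2 5, gave 0.58 and 1.83. The probe sets thus disagreed, and with all of them averaged the Pfkp call in RIP-OVAhi was lost. The liver and muscle isoforms were not called: Pfkl differed by 0.18 (SE 0.23) and 0.33 (SE 0.23), and Pfkm by -0.05 (SE 0.14) and -0.15 (SE 0.14), in RIP-OVAhi and OCS/LPS.

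Aldolase and triose phosphate isomerase split the sugar and interconvert the resulting trioses. Aldoa lay between 11.66 and 12.17 on all arrays and was highest in OCS/LPS, where its difference of 0.34 (SE 0.12, adjusted p = 0.0784) missed the threshold. In RIP-OVAhi it differed by 0.06 (SE 0.12). Aldoc stayed near background, at 2.77 to 2.90. Tpi1, which encodes the isomerase, lay at 9.41 and 10.03 on the naive arrays, 10.65 and 10.79 with RIP-OVAhi, 11.05 and 11.44 with OCS/LPS and 9.90 with Rag. Both antigen-driven groups lay above the naive arrays, and the Rag array lay within the naive range. Tpi1 rose by 1.0 in RIP-OVAhi (SE 0.24, adjusted p = 0.0271) and by 1.53 in OCS/LPS (SE 0.24, adjusted p = 0.00631). The other 2 Tpi1 probe sets gave 1.03 and 1.32 in RIP-OVAhi and 1.55 and 1.89 in OCS/LPS.

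The later steps of glycolysis yield ATP, and of the 4 genes measured here before lactate dehydrogenase, Pgam1 and Pkm rose in both antigen-driven groups and Pgk1 in OCS/LPS. Pgk1, an ATP-forming kinase, lay at 11.67 and 11.97 on the naive arrays, 12.15 and 12.31 with RIP-OVAhi, 12.47 and 12.31 with OCS/LPS and 11.73 with Rag. It rose by 0.57 in OCS/LPS (SE 0.15, adjusted p = 0.0366), and its difference of 0.41 in RIP-OVAhi was not called (SE 0.15, adjusted p = 0.0994). A second bright Pgk1 probe set gave 0.95 with RIP-OVAhi and 1.17 with OCS/LPS, and with all 3 averaged Pgk1 was called in RIP-OVAhi too (0.59, adjusted p = 0.0145). The phosphoglycerate mutase gene Pgam1 lay at 10.76 and 10.91 on the naive arrays, 11.59 and 11.77 with RIP-OVAhi, 11.85 and 11.83 with OCS/LPS and 11.08 with Rag. The naive arrays were lowest, the Rag array came next and the OCS/LPS arrays were highest. Pgam1 rose by 0.85 in RIP-OVAhi (SE 0.13, adjusted p = 0.00618) and by 1.01 in OCS/LPS (SE 0.13, adjusted p = 0.0031). Pkm, which encodes the muscle-type pyruvate kinases, lay at 10.40 and 9.81 on the naive arrays, 11.16 and 10.96 with RIP-OVAhi, 11.09 and 11.11 with OCS/LPS and 10.58 with Rag. The naive arrays stood apart from each other and were still below all other arrays. Pkm rose by 0.95 in RIP-OVAhi (SE 0.21, adjusted p = 0.0212) and by 0.99 in OCS/LPS (SE 0.21, adjusted p = 0.0167). The neuronal enolase gene Eno2 stayed near background on every array, at 2.28 to 2.33.

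Lactate dehydrogenase has an A and a B subunit, and the A form is the one known to rise in dividing T cells. Ldha lay at 12.51 and 12.33 on the naive arrays, 12.96 and 12.98 with RIP-OVAhi, 13.10 and 13.20 with OCS/LPS and 12.96 with Rag. All arrays of divided cells, Rag included, lay above the naive arrays. Ldha rose by 0.55 in RIP-OVAhi (SE 0.12, adjusted p = 0.0227) and by 0.73 in OCS/LPS (SE 0.12, adjusted p = 0.00805). The Ldha call in RIP-OVAhi was lost after centring on the tested genes. Ldhb lay at 6.28 and 6.83 on the naive arrays, 6.15 and 6.15 with RIP-OVAhi, 6.14 and 6.15 with OCS/LPS and 5.62 with Rag. Its difference of -0.41 (SE 0.20) in both antigen-driven groups was not called, nor was that of -0.93 (SE 0.24, adjusted p = 0.126) in Rag. All 3 other Ldhb probe sets were lower in every divided group than in naive, with differences of -0.98 to -0.47 in RIP-OVAhi, -1.69 to -0.74 in OCS/LPS and -2.69 to -1.95 in Rag, although 1 of the 3 did not reach log2 5 on 2 arrays. With its probe sets averaged Ldhb was called lower in OCS/LPS and in Rag.

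**Figure D2:**
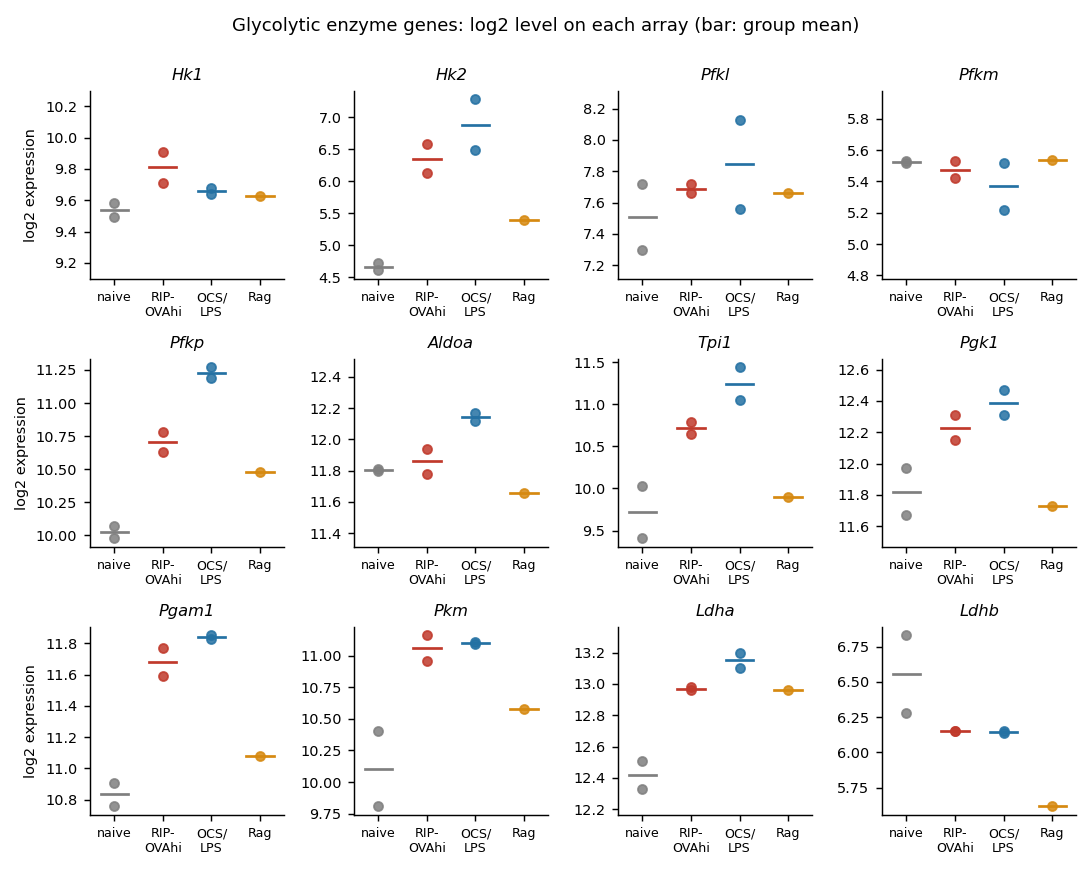
Log2 expression (y axis, a separate range in each panel) of the 12 tested glycolytic enzyme genes on each array, by group, with a bar at the group mean. Hk2, Pfkp, Tpi1, Pgam1, Pkm and Ldha are higher in both antigen-driven groups than in naive, and the single Rag array lies below both groups for all of these but Ldha.

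Pfkfb3 was higher in RIP-OVAhi than in OCS/LPS, a call that was lost without any 1 of the 4 arrays compared. Tolerance or priming, tissue, lipopolysaccharide and pool size cannot be told apart between these groups. The enzyme encoded by Pfkfb3 makes fructose 2,6-bisphosphate, the strongest known activator of phosphofructokinase. Pfkfb3 lay at 6.94 and 6.75 on the naive arrays, 8.09 and 8.17 with RIP-OVAhi, 7.05 and 7.37 with OCS/LPS and 7.21 with Rag. The RIP-OVAhi arrays were above all others, and the OCS/LPS and Rag arrays lay close to each other and above naive. Pfkfb3 rose by 1.29 in RIP-OVAhi against naive (SE 0.16, adjusted p = 0.00282), whereas its difference in OCS/LPS was 0.37 (SE 0.16, adjusted p = 0.123). Set directly against each other, RIP-OVAhi exceeded OCS/LPS by 0.92 (SE 0.16, adjusted p = 0.0425), or 1.90-fold. It was the 1 gene of 26 called in this comparison, where 2.91% of all tested genes were called (1.61% higher and 1.30% lower). With the replicate number as a block the difference stayed 0.92 and the adjusted p was 0.0635, and without any 1 of the 4 arrays compared the difference was 0.76 to 1.08 with adjusted p from 0.164 to 0.342. The other Pfkfb3 probe set was near background on every array, at 2.85 to 3.14, so averaging both, which gave 0.46 (adjusted p = 0.1), dilutes the difference by construction. RIP-OVAhi exceeded Rag by 0.92 as well (SE 0.19, adjusted p = 0.0263; 0.89 and adjusted p = 0.0577 with the block). The related gene Pfkfb4 was near background, at 2.94 to 3.44 on every array.

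Pyruvate dehydrogenase uses pyruvate inside the mitochondria, and the PDK kinases switch it off. Pdha1, which encodes its catalytic alpha subunit, lay at 10.16 and 10.27 on the naive arrays, 10.77 and 10.79 with RIP-OVAhi, 10.79 and 10.71 with OCS/LPS and 10.25 with Rag. It rose by 0.57 in RIP-OVAhi (SE 0.12, adjusted p = 0.0163) and by 0.53 in OCS/LPS (SE 0.12, adjusted p = 0.0182), with the Rag array inside the naive range. Of the kinases, Pdk1 fell and Pdk3 rose. Pdk1 lay at 12.57 and 12.34 on the naive arrays, 11.23 and 11.09 with RIP-OVAhi, 11.55 and 11.49 with OCS/LPS and 12.19 with Rag. The naive and Rag arrays were all above the 4 arrays of the antigen-driven groups. Pdk1 fell by 1.30 in RIP-OVAhi (SE 0.14, adjusted p = 0.00169) and by 0.94 in OCS/LPS (SE 0.14, adjusted p = 0.00468). The other 3 Pdk1 probe sets were lower too, with differences of -2.59 to -1.19 in RIP-OVAhi and of -2.31 to -0.92 in OCS/LPS. Pdk1 was the gene of the list with the smallest adjusted p in RIP-OVAhi, and its direction was down. It is known as a target that HIF-1 induces, and the part of HIF-1 in its level was not tested. Pdk3 lay at 7.50 and 8.21 on the naive arrays, 8.99 and 9.14 with RIP-OVAhi, 9.20 and 9.13 with OCS/LPS and 7.85 with Rag. The antigen-driven arrays were all above naive, and the Rag array was between the naive arrays. Pdk3 rose by 1.21 in RIP-OVAhi (SE 0.24, adjusted p = 0.0145) and by 1.31 in OCS/LPS (SE 0.24, adjusted p = 0.0101). Pdk2 stayed near background, at 2.50 to 2.62.

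Of the 6 tested pentose phosphate genes, Rpe rose in both antigen-driven groups and Tkt in OCS/LPS. In its oxidative arm, which yields NADPH, Pgd differed by 0.20 (SE 0.12) in RIP-OVAhi and 0.23 (SE 0.12) in OCS/LPS and was not called. A dimmer Pgd probe set gave 0.47 and 0.80, and with its probe sets averaged Pgd was called in OCS/LPS (0.41, adjusted p = 0.0299). Pgls lay at 6.87 and 8.22 in naive and between 6.63 and 7.21 on the other 5 arrays, so that its difference of -0.74 (SE 0.42) in RIP-OVAhi rested on 1 naive array. Without naive replicate 1 it was -1.42, and without naive replicate 2 it was -0.07. In the non-oxidative arm, which exchanges sugars with glycolysis, Rpe, the ribulose phosphate epimerase, lay at 8.54 and 8.16 on the naive arrays, 8.93 and 9.11 with RIP-OVAhi, 9.02 and 9.07 with OCS/LPS and 8.56 with Rag. It rose by 0.67 in RIP-OVAhi (SE 0.16, adjusted p = 0.0283) and by 0.70 in OCS/LPS (SE 0.16, adjusted p = 0.0235), and both calls were lost after centring on the tested genes. A second Rpe probe set gave 1.83 and 1.88. The transketolase gene Tkt lay at 12.87 and 13.10 on the naive arrays, 13.17 and 13.19 with RIP-OVAhi, 13.45 and 13.47 with OCS/LPS and 13.07 with Rag. It rose by 0.47 in OCS/LPS (SE 0.13, adjusted p = 0.0367; adjusted p = 0.0527 with the replicate block) and its difference of 0.19 (SE 0.13) in RIP-OVAhi was not called. The transaldolase gene Taldo1 and the isomerase gene Rpia were not called in any comparison, with differences of 0.17 and -0.02 in RIP-OVAhi and 0.29 and 0.10 in OCS/LPS.

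**Figure D3:**
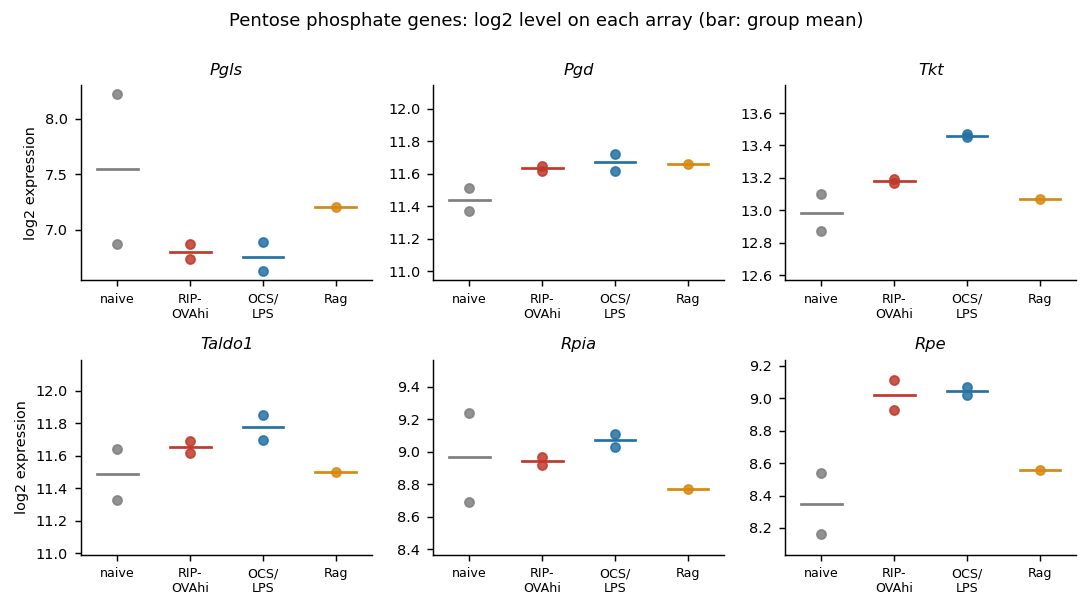
Log2 expression (y axis, a separate range in each panel) of the 6 tested pentose phosphate genes on each array, by group, with a bar at the group mean. Rpe lies higher in both antigen-driven groups than in naive, and the high Pgls mean in naive comes from the array at 8.22.

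Among the hypoxia genes no member rose. Hif1a, the oxygen-regulated subunit of HIF-1, lay at 10.94 and 10.88 on the naive arrays, 11.17 and 11.33 with RIP-OVAhi, 11.26 and 11.32 with OCS/LPS and 10.90 with Rag. The 4 antigen-driven arrays were above the other 3, but the differences of 0.34 in RIP-OVAhi (SE 0.12, adjusted p = 0.0858) and 0.38 in OCS/LPS (SE 0.12, adjusted p = 0.0601) missed the threshold. A dimmer Hif1a probe set gave 1.08 and 1.03 and another gave 0.34 and -0.00, and with its probe sets averaged Hif1a was called higher in both comparisons. In OCS/LPS, Hif1a was also called with the arrays centred on their medians over all probe sets (adjusted p = 0.0456), without the filter (0.0488) and with a trended, robust prior (0.0424). HIF-1 is regulated mainly through the stability of its protein, which arrays do not measure. Egln1, the main prolyl hydroxylase that marks HIF-1 for degradation, differed by -0.34 (SE 0.12, adjusted p = 0.0868) and -0.35 (SE 0.12, adjusted p = 0.0722), and was called lower in both after centring on the tested genes. Its second probe set gave -0.15 and 0.12. Egln3, a hydroxylase that HIF-1 induces, lay at 3.71 and 5.27 on the naive arrays, 2.20 and 2.86 with RIP-OVAhi, 3.70 and 4.59 with OCS/LPS and 2.89 with Rag, with 1 array above log2 5. Vegfa, the angiogenic factor and a textbook HIF-1 target, stayed at 2.61 to 2.71 on every array. Bnip3, a mitophagy receptor, lay at 5.72 and 5.82 on the naive arrays, 5.80 and 5.50 with RIP-OVAhi, 5.13 and 5.00 with OCS/LPS and 5.41 with Rag. The OCS/LPS arrays were lowest, and RIP-OVAhi overlapped naive. Bnip3 fell by 0.70 in OCS/LPS (SE 0.15, adjusted p = 0.0159), differed by -0.12 (SE 0.15) in RIP-OVAhi, and the direct difference of 0.58 between them was not called (SE 0.15, adjusted p = 0.129).

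Txnip limits glucose uptake by promoting the removal of glucose transporters from the cell surface. Txnip lay at 12.25 and 11.81 on the naive arrays, 10.90 and 10.70 with RIP-OVAhi, 11.16 and 11.24 with OCS/LPS and 12.65 with Rag. The Rag array was the highest and the antigen-driven arrays were the lowest, with naive between. Txnip fell by 1.23 in RIP-OVAhi (SE 0.18, adjusted p = 0.00542) and by 0.83 in OCS/LPS (SE 0.18, adjusted p = 0.0176). Against Rag it was lower by -1.85 in RIP-OVAhi (SE 0.22, adjusted p = 0.00468) and by -1.46 in OCS/LPS (SE 0.22, adjusted p = 0.0103). The second Txnip probe set gave -1.81 and -1.69 against Rag, but -0.45 and -0.33 against naive, and with both averaged the Txnip call in OCS/LPS against naive was lost.

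**Figure D4:**
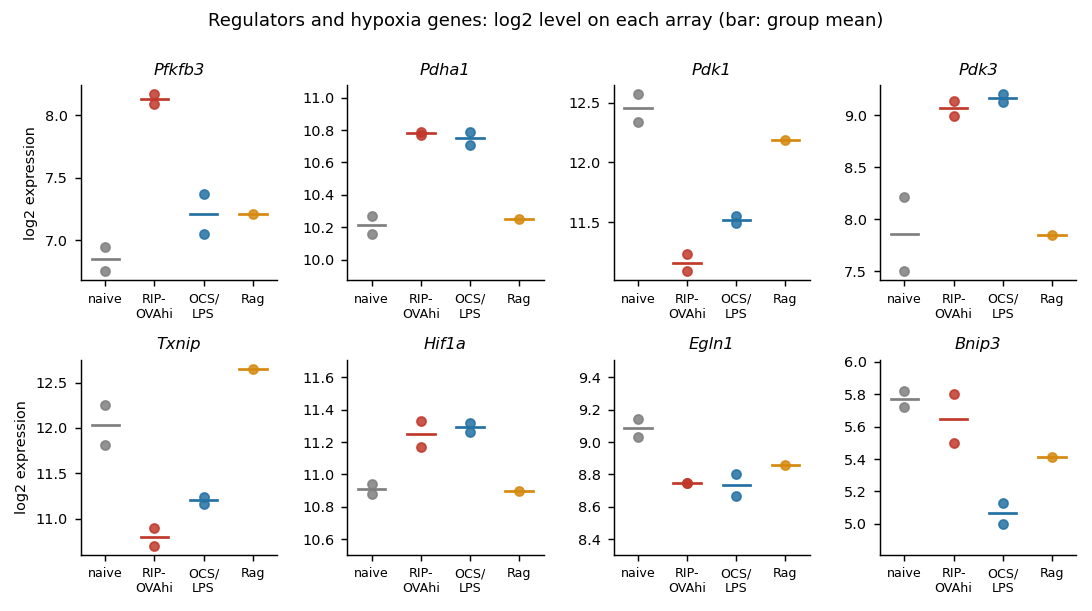
Log2 expression (y axis, a separate range in each panel) of the 8 tested regulator and hypoxia genes on each array, by group, with a bar at the group mean. Pfkfb3 is highest in RIP-OVAhi (8.09 and 8.17), Pdk1 and Txnip are low in both antigen-driven groups, and the Rag array is the highest for Txnip (12.65).

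The comparison of RIP-OVAhi with OCS/LPS addresses whether cells of the tolerance and priming models, both dividing after 60 h, differ in these genes. The groups also differ in tissue (lymph nodes against spleen), in lipopolysaccharide and in the number of mice pooled. Between these groups such differences cannot be told apart from tolerance or priming. Apart from Pfkfb3, 25 of the 26 genes were not called. The arrays did not overlap for 13 of the 26, and for 57.6% of all tested genes. Their differences ran from -0.54 (Hk2) to 0.58 (Bnip3), and for 22 of the 25 the 95% interval of the single difference lay within 2-fold in either direction. The widest bounds among them were -1.25 and 1.07, so for some genes the interval reached past 2-fold. These intervals are not adjusted over genes and do not show how large a difference the calls could detect. By group mean 9 of the 12 glycolytic enzyme genes were lower in RIP-OVAhi than in OCS/LPS, where 58.1% of all tested genes were. Pfkp, lower by -0.52 (SE 0.12, adjusted p = 0.109, 95% interval -0.82 to -0.22), and Tpi1, lower by -0.53 (SE 0.24, adjusted p = 0.363), were among those 13 and were not called.

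**Figure D5:**
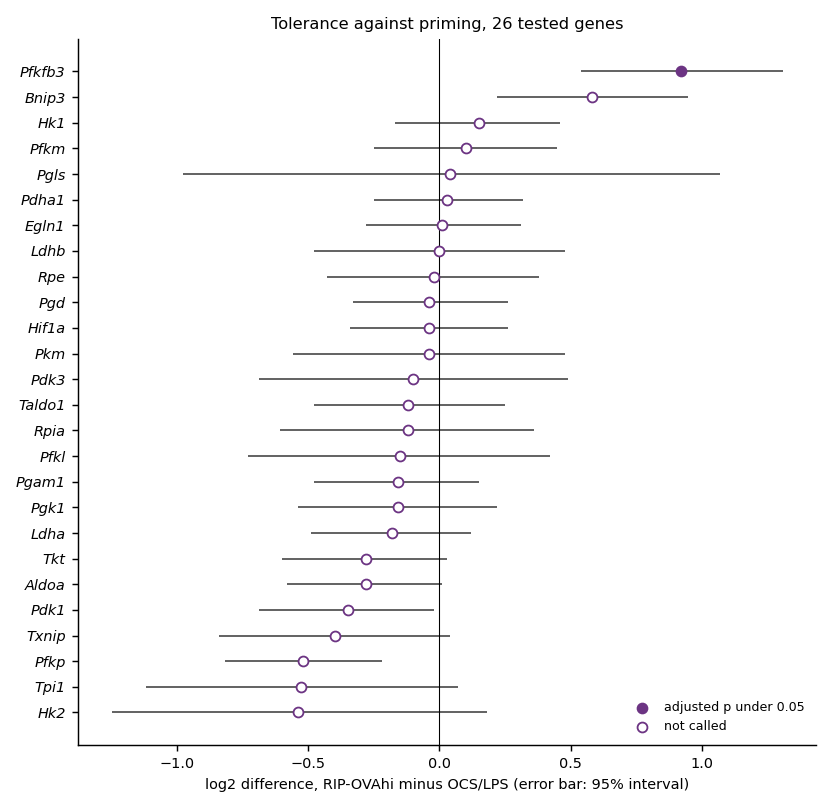
Log2 difference between RIP-OVAhi and OCS/LPS (x axis) for the 26 tested genes (y axis, in order of the difference), with the 95% interval as bar and a filled symbol for adjusted p under 0.05. Pfkfb3 (0.92) is the filled symbol at the top, and the other intervals reach from -1.25 to 1.07.

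The Rag array addresses division without the transgenic antigen, at a later time than the other groups. Against naive, limma called 0 of the 26 genes, where 2.73% of all tested genes were called (2.15% higher and 0.585% lower). The unadjusted limma p was under 0.05 for 4 of the 26 (Pfkp, Ldha, Ldhb and Txnip), and for 1488 of all 8203 tested genes. The Rag array lay outside the naive arrays for 16 of the 26, and for 67.6% of all tested genes. With 1 array the test assumes that Rag cells vary like the other groups. Leaving out either naive array leaves 1 array on each side of this comparison, so calls from such fits are not read for single genes. Over the arrays left out in turn, the difference from naive ran from 0.18 to 0.76 for Pkm and from 0.45 to 0.63 for Ldha. It ran from -1.21 to -0.65 for Ldhb and from 0.41 to 0.84 for Txnip. For Pgls the difference changed sign. The 11 genes that changed the same way in both antigen-driven groups were picked for their gap from naive. The Rag value lay between the naive mean and the antigen-driven mean for 10 of them, the exception being Txnip. The share over all genes called in both groups was not computed. For Ldha the Rag value lay 84.2% of the way from naive to the antigen-driven mean, for Pkm 48.2%, for Pfkp 48.0% and for Hk2 37.0%. It lay 31.3% of the way for Rpe, 26.7% for Pgam1, 23.7% for Pdk1, 14.8% for Tpi1, 6.57% for Pdha1 and 0.0733% for Pdk3. For Tpi1, Pdha1 and Pdk3 it was within the naive arrays. RIP-OVAhi differed from Rag in 4 of the 26 genes, where 16.7% of all tested genes were called (9.84% higher and 6.90% lower): Pfkfb3 and Pdk3 were higher and Pdk1 and Txnip lower. The Rag array lay outside the RIP-OVAhi arrays for 24 of the 26 and for 86.0% of all tested genes. Pdk3 was higher by 1.21 (SE 0.29, adjusted p = 0.0419; 1.08 and adjusted p = 0.0665 with the replicate block). Pdk1 was lower by -1.03 (SE 0.17, adjusted p = 0.0124). OCS/LPS differed from Rag in 7 of the 26 genes, where 18.1% of all tested genes were called (11.2% higher and 6.90% lower). The Rag array lay outside the OCS/LPS arrays for 23 of the 26 and for 87.2% of all tested genes. Hk2 (1.49, SE 0.36), Pfkp (0.75, SE 0.15), Tpi1 (1.34, SE 0.30), Pgam1 (0.76, SE 0.16) and Pdk3 (1.31, SE 0.29) were higher in OCS/LPS, with adjusted p from 0.0249 to 0.0387. Pdk1 (-0.68, SE 0.17, adjusted p = 0.0422) and Txnip were lower. With the replicate block the adjusted p was 0.0561 for Pfkp, 0.0593 for Pgam1, 0.0525 for Pdk3 and 0.0836 for Pdk1 in this comparison, and 3 of the 7 calls were kept. Host, time and the 1 array of the Rag group cannot be told apart. That array had high Kdm5d. Each other group also held 1 array with high Xist, so the differences from Rag without the block can also carry sex.

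Other genes of the same pathways came from wider lists. Of 27 further glycolytic and glycogen genes, 11 were tested, and 3 rose and 1 fell in RIP-OVAhi, while 3 rose and 2 fell in OCS/LPS. These counts, and those of the lists that follow, stand beside the 29.6% and 32.9% of all tested genes called in the same comparisons. Gapdh, the dehydrogenase of mid-glycolysis, lay at 12.51 and 12.79 on the naive arrays, 13.40 and 13.48 with RIP-OVAhi, 13.67 and 13.55 with OCS/LPS and 12.82 with Rag. It rose by 0.79 (SE 0.14, adjusted p = 0.0109) in RIP-OVAhi and by 0.96 (SE 0.14, adjusted p = 0.00512) in OCS/LPS. Its control probe sets along the transcript moved unequally: in OCS/LPS the 3′ set differed by 0.96, the middle set by 1.35 and the 5′ set by 1.60. The gap from the 3′ to the 5′ set, which grows with RNA breakage and short amplification products, was 2.59 and 2.43 on the naive arrays, 2.21 with Rag, 2.08 and 2.03 with RIP-OVAhi and 1.85 and 1.89 with OCS/LPS. It was thus smaller in the groups where glycolytic genes were higher, and its part in these results was not tested. The phosphoglucomutase gene Pgm2 rose by 1.17 (SE 0.22) and 1.5 (SE 0.22), and the glycogen phosphorylase gene Pygb rose by 0.87 (SE 0.13) and 1.07 (SE 0.13). Adpgk, an ADP-dependent glucokinase, fell from 5.60 in naive to 4.25 in RIP-OVAhi and 4.66 in OCS/LPS, near background. Bpgm, the red cell mutase, which was chosen after its values were seen, lay at 9.67 in Rag against 8.16 in RIP-OVAhi and 8.38 in OCS/LPS, lower by -1.51 (SE 0.31) and -1.29 (SE 0.31). Erythroid and platelet genes, 2 of 9 at log2 5 on at least 2 arrays, had a summed level of 8.81 in Rag and 6.13 to 7.27 elsewhere. Of them, Alas2 (6.65) and Slc4a1 (8.28) were higher in Rag than on any other array. Ppbp was at 2.87 in Rag against 5.13 and 6.13 in naive, and Pf4 had its lowest value, 3.24, in Rag. Hba-a1, Epb42 and Itga2b stayed near background on every array. The part of these genes in the Bpgm difference was not tested.

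Of 10 glucose and lactate transporter genes 5 were tested and limma called 0 in any comparison with naive. Slc2a1, named for its role, encodes the glucose transporter GLUT1 and lay at 9.04 and 10.08 on the naive arrays, 8.60 and 8.92 with RIP-OVAhi, 9.28 and 9.68 with OCS/LPS and 9.14 with Rag. The naive arrays stood far apart, and the RIP-OVAhi arrays were the lowest. Of 11 genes for the mitochondrial uptake and use of pyruvate 7 were tested, and limma called 0 in RIP-OVAhi. Dlat, a subunit of pyruvate dehydrogenase, rose by 1.26 in OCS/LPS (SE 0.23, adjusted p = 0.00961). Of 9 further pentose phosphate genes 6 were tested, and Prps2, a ribose phosphate kinase, fell by 0.46 in OCS/LPS (SE 0.12, adjusted p = 0.0333).

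Among hypoxia genes outside the list, of 11 further HIF factors and regulators 8 were tested, of which 2 rose and 1 fell in RIP-OVAhi and 2 rose in OCS/LPS. Vhl, the ubiquitin ligase subunit that recognises hydroxylated HIF, rose by 1.10 (SE 0.19, adjusted p = 0.00976) and 1.05 (SE 0.19, adjusted p = 0.0103). Its naive arrays were at 5.39 and 4.87, 1 of them near background, so the size is uncertain. Eloc, which encodes elongin C of the same ligase, rose by 0.44 (SE 0.13, adjusted p = 0.0491) and 0.49 (SE 0.13, adjusted p = 0.0309). Rbx1, the ring finger protein of the same ligase, fell from 6.21 in naive to 4.63 in RIP-OVAhi, near background (SE 0.37, adjusted p = 0.0238). Its difference of -1.21 in OCS/LPS just missed the threshold (adjusted p = 0.0502). Of 25 further HIF target genes 15 were tested, of which 3 rose and 3 fell in RIP-OVAhi, and 2 rose and 3 fell in OCS/LPS. Among all tested genes 29.6% and 32.9% were called, so neither hypoxia list is read as a change of its group. Narf rose by 1.42 (SE 0.23) and 1.15 (SE 0.23), from naive values of 5.44 and 4.78, 1 of them near background. Ankrd37 rose by 0.78 (SE 0.12) and 0.63 (SE 0.12). Pnrc1 fell by 0.57 (SE 0.12) and 0.75 (SE 0.12). Ddit4, an inhibitor of mTORC1 signalling, rose by 0.74 in RIP-OVAhi (SE 0.18, adjusted p = 0.027), and its difference in OCS/LPS was 0.30 (SE 0.18). Against Rag, Ddit4 was higher by 1.86 in RIP-OVAhi (SE 0.22, adjusted p = 0.00456) and by 1.42 in OCS/LPS (SE 0.22, adjusted p = 0.011). Of 10 genes of the Txnip family and of glucose sensing 7 were tested, and the thioredoxin gene Txn1, whose protein Txnip binds, rose by 1.21 in RIP-OVAhi (SE 0.27, adjusted p = 0.0214) and by 1.43 in OCS/LPS (SE 0.27, adjusted p = 0.0115). Mlx, the partner of the factors that drive Txnip transcription, rose by 0.58 in OCS/LPS (SE 0.12, adjusted p = 0.017), and its difference of 0.42 in RIP-OVAhi was not called (adjusted p = 0.0502).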

How the data were processed

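RNA levels in 7 pools of sorted OT-I cells were measured on Affymetrix arrays after 2 rounds of amplification of 100 ng of total RNA, per the labels' protocols. The deposited values are log2 expression values made by the authors with GCRMA, per the submitters' processing notes, with no version named there. GCRMA includes quantile normalisation, which hides any shift common to most genes. Arrays have no read depth, and their number limits the precision.

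Gene names came from GEO's platform annotation (34958 of 45101 probe sets with 1 symbol). A single limma 3.58.1 fit (R 4.3.3) of group means held all arrays, with 3 residual and 2.93 prior degrees of freedom; two-sided p-values were adjusted by Benjamini-Hochberg over the 8203 tested genes in each of 6 comparisons, with calls made below 0.05. The SE uses limma's moderated variance, and 95% intervals are not adjusted over genes. Nothing in the labels says whether replicate pools were separate experiments. Xist and Kdm5d followed the replicate number, so the 2 arrays of a group were not the same pool measured again. The p-values reflect only the scatter of these arrays, which includes that difference. Same-numbered arrays deviated together across all genes (r = 0.35, 0.13 and 0.32 for the 3 pairs of groups; 0.20, -0.06 and -0.02 on autosomes), and the labels' replicate numbers were therefore used as a block in an alternative fit. In these arrays the block cannot be told apart from the difference in Xist and Kdm5d. The fit was run on simulated data with independent noise and 200 genes changed in 1 group. That run does not measure error rates in these arrays. Genes with values on every array in the text are those called in some comparison with a log2 difference of at least 1, other genes are given by range, by group or for their role, and up to 4 called genes stand for each wider list. Members, lists and rules were chosen with earlier results of these data known.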

Additional observations from a re-analysis of the deposited data

How the results depend on the processing

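No call of a listed gene changed direction under any alternative: of 2172 values recomputed for single genes and comparisons, 134 lost their call, 68 gained one and 1970 did neither. Leaving out 1 array takes 1 of the 3 residual degrees of freedom, and a group reduced to 1 array is assumed to vary like the others. Over the arrays left out in turn, the number of listed genes called was 2 to 14 for RIP-OVAhi against naive (lowest without RIP-OVAhi replicate 2), 4 to 17 for OCS/LPS against naive (lowest without OCS/LPS replicate 2), 0 to 5 for Rag against naive, 0 to 1 for RIP-OVAhi against OCS/LPS, 1 to 10 for RIP-OVAhi against Rag and 0 to 14 for OCS/LPS against Rag. For all genes the numbers were 807 to 3281 (2429 with all arrays), 1018 to 3646 (2698), 59 to 1622 (224), 32 to 416 (239), 370 to 2549 (1373) and 397 to 2833 (1483). The calls of Pfkfb3 and Pdk1 in RIP-OVAhi and of Hk2, Pfkp, Pgam1 and Pdk1 in OCS/LPS held against naive without any 1 array. Without the filter on low values, which adds genes to the adjustment, 7 listed genes were called for RIP-OVAhi against naive, 4 for OCS/LPS against Rag, and 0, with 105 of all genes, for RIP-OVAhi against OCS/LPS. With the replicate block, 0 were called for RIP-OVAhi against OCS/LPS, 2 for RIP-OVAhi against Rag and 3 for OCS/LPS against Rag; beside the calls lost that are given with their values in the results, the block changed no other call. With all probe sets of a gene averaged, 1 was called for Rag against naive (Ldhb, lower), 0 for RIP-OVAhi against OCS/LPS and 7 for RIP-OVAhi against Rag; the cause was not tested. With the 2 groups alone in the fit, 1601 of all genes were called for RIP-OVAhi against naive and 416 for RIP-OVAhi against OCS/LPS. Leaving out the Rag array and centring on the tested genes were chosen after seeing the data.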
